A study of Mus musculus with 36 samples.

Results

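Day 1 was set against day 0 in a mouse embryonic stem cell culture on its way to spinal motor neurons. The members are the 3 libraries labelled day 1 and the 3 labelled day 0, taken by their labelled time, so 6 of the 36 libraries of the series. The day 1 cells had spent 24 hours in N2B27 medium with 100 nM retinoic acid and 500 nM SAG, a small-molecule agonist of the Hedgehog signal transducer Smoothened. The day 0 cells, which the labels call control, stood at the end of the preceding step. In that step they had received bFGF at 10 ng/ml and, on its last day, bFGF together with 5 µM CHIR99021 (a GSK3 inhibitor that switches on Wnt signalling), 10 µM SB431542 (an inhibitor of the activin and Nodal receptor kinases) and 2 µM DMH1 (a BMP receptor kinase inhibitor). The labels list none of these 4 additions from day 0 onwards. All libraries came from polyA RNA of HM1, an established mouse embryonic stem cell line, with feeder cells removed on gelatin before plating. The groups thus differ in 2 agents added, 4 no longer listed and 24 hours of culture, and these cannot be told apart, since no day 1 group without retinoic acid or SAG was analysed here. It is 1 cell line, and the labels do not say whether the 3 biological replicates of a day were separate cultures. The p-values thus measure only the spread between libraries of the same day, estimated over all 36 libraries of the series.

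Neuromesodermal progenitors of the caudal epiblast can enter the spinal cord or the paraxial mesoderm. Wnt and FGF signals hold them in that state through T (brachyury), Sox2 and the Cdx factors, while retinoic acid, made by the somites, lets them leave it as neural progenitors. Retinoic acid binds receptors that sit on direct-repeat response elements, and among its direct targets are the 3′ Hox genes, its own receptor Rarb and the enzymes that degrade it. Hedgehog signalling lifts the repression of Smoothened by Ptch1 and, through the Gli factors, turns on ventral progenitor genes and its own inhibitors Ptch1 and Hhip.

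The promoter sequences of 3 genes on which the signalling results turn are given first, because 2 of them hold a letter match to the retinoic acid response element and the other is the most used readout of Hedgehog signalling. The matches were searched as a direct repeat (DR5): a half-site, any 5 bases, then a half-site again, on both strands, where a half-site is AGGTCA, is AGTTCA, is GGGTCA or else is GGTTCA. The Gli motif was searched as GACCACCCA on both strands. Windows were RefSeq's 250 bases before to 50 bases after each gene's start (assembly GRCm38.p6), and the 250 bases before the start are printed 5′ to 3′ on the gene's strand, with the DR5 match in capitals. Positions are counted back from the start. The table gives 1 start per gene: that of Cyp26a1 lies 10 bases downstream of the outermost GENCODE start, that of Ptch1 7863 bases and that of Rarb 243680 bases, so other promoters of Ptch1 and Rarb were not searched.
Cyp26a1, chr19:37697558-37697807, plus strand, match at -32 to -16 in the opposite orientation: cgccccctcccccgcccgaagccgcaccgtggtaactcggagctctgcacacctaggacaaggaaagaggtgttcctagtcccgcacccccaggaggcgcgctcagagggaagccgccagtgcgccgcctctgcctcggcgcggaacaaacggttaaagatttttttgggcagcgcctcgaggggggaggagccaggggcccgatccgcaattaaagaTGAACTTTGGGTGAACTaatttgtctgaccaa
Rarb, chr14:16575477-16575726, minus strand, match at -53 to -37: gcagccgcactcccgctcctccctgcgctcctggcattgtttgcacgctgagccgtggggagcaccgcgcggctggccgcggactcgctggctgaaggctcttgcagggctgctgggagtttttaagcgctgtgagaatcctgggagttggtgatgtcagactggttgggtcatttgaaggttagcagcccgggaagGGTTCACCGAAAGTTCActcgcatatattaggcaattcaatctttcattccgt
Ptch1, chr13:63565736-63565985, minus strand, no match to either motif: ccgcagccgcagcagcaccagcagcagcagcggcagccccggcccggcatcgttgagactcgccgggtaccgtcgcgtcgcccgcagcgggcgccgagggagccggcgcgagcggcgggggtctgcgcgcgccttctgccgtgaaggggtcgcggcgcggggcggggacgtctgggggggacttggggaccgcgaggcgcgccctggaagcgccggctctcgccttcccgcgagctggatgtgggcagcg
DR5 was found in 32 of 32851 windows, or 0.0974%, and the Gli motif in 83 windows, or 0.253%. Hhip had a window with neither motif, and Gli1 had none in the table. Of the 9 tested genes with a DR5 match, 3 were called higher at day 1 (Cyp26a1, Rarb and the embryonic globin Hbb-y), 4 lower and 2 neither. Of the 31 tested genes with a Gli match, 12 were called higher and 8 lower. Over all 17990 genes tested, 31.0% were called higher and 31.5% lower, so these counts are no result about genes with a match. The median log2 fold change, day 1 over day 0, was -0.04 for the tested DR5 genes and 0.06 for the tested Gli genes. A match is a run of letters and not a binding site, and no match says only that these letters are absent from the window.

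Each gene has a deposited expected read count and a deposited TPM (a transcript abundance scaled for gene length and sequencing depth). Counts were compared with edgeR's quasi-likelihood test, and every adjusted p below is from that test with Benjamini-Hochberg adjustment over the 17990 genes tested. A gene was called where the adjusted p was under 0.05, and log2 fold changes are day 1 over day 0 with their approximate standard error. Values in libraries are TPM in the order of replicates 1, 2 and 3. The 6 libraries held 29187652 to 34358563 counts, with 0.982% to 1.33% from mitochondrial genes, and the first principal component of log2 CPM (82.6% of the variance) separated the days. Calls were made for 11242 genes (62.5%), of which 5580 (31.0%) were higher and 5662 (31.5%) lower at day 1. A change of at least 2-fold was called for 1551 genes (8.62%) higher and 2149 (11.9%) lower. The TPM of the groups did not overlap for 10852 genes (60.3%). For day 0.5, 54.3% of genes were called against day 0, and 47.5% differed between day 1 and day 0.5. The median log2 fold change of all genes was 0.00, so a list's counts are to be read against these shares.

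**Figure D1:**
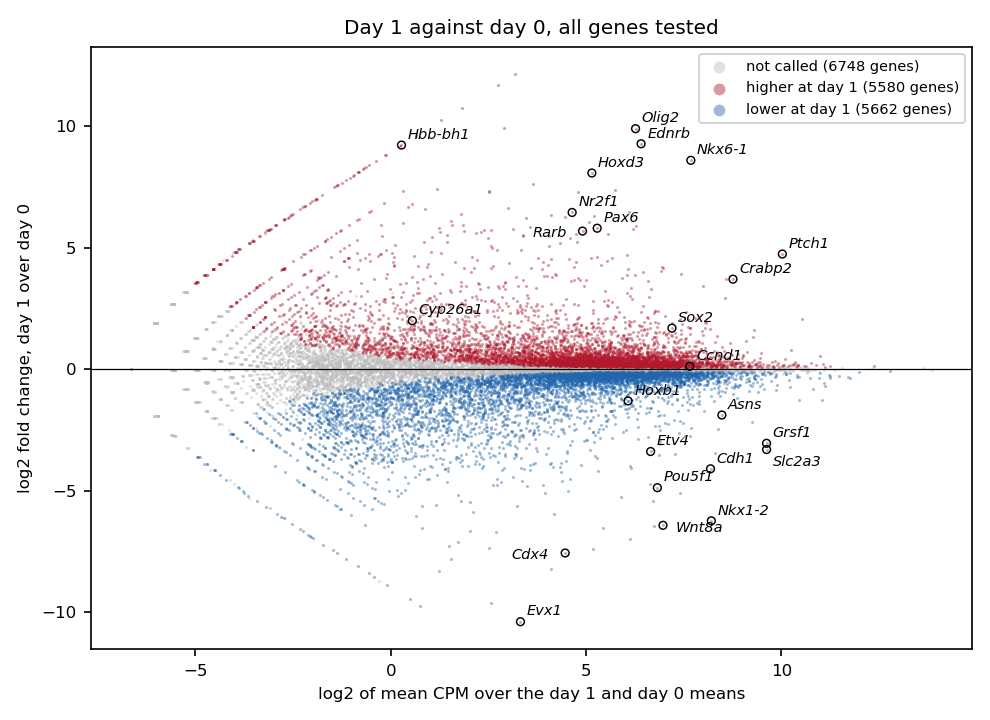
Each point is 1 of 17990 genes, with the log2 of its mean CPM over day 1 and day 0 on the x axis and its fitted log2 fold change, day 1 over day 0, on the y axis; colours mark the 5580 genes called higher, the 5662 called lower and the rest. Circled genes are described in the text: Olig2, Ednrb, Nkx6-1 and Hoxd3 stand at the top among well expressed genes, and Evx1, Cdx4, Wnt8a and Nkx1-2 at the bottom, while the straight rays at the left are genes with few or no counts in 1 group.

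The labels call the cells neural progenitors on both days, from neuromesodermal progenitors. At day 0 the neural progenitor factor Sox1 stood at 4.24, 4.38 and 3.87 TPM and Pax6 at 0.98, 1.17 and 1.15 TPM, while the caudal epiblast genes Nkx1-2, Cdx2 and T averaged 291, 239.9 and 37.2 TPM. Other neural progenitor genes were well detected at day 0: Sox2 had 58.9, 55.0 and 53.5 TPM, and the 25 genes of the neural progenitor list summed to 684 to 706 TPM. At day 1, Sox1 and Pax6 averaged 77.8 and 56.2 TPM, while Nkx1-2, Cdx2 and T averaged 3.88, 7.13 and 2.03 TPM. Changes of level in these bulk libraries cannot tell more cells of a type from more RNA per cell.

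**Figure D2:**
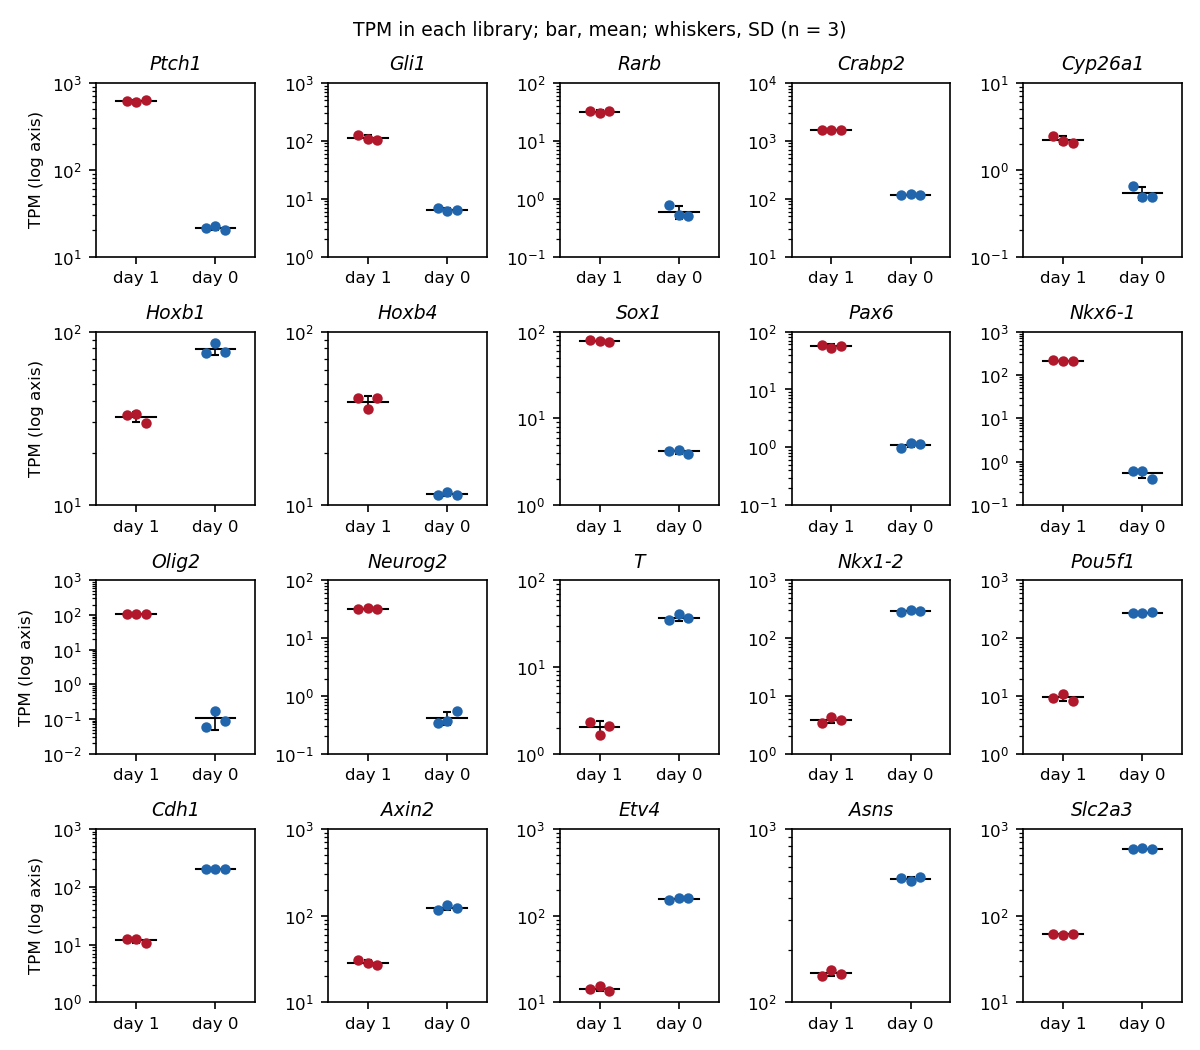
TPM of 20 genes in each of the 3 day 1 libraries (left in each panel) and 3 day 0 libraries (right), on log axes, with the mean as a bar and the SD as whiskers. In every panel the day 1 and day 0 libraries are apart: Ptch1 lies between 609.9 and 635 TPM at day 1 and between 20.2 and 22.5 TPM at day 0, and Nkx1-2 between 3.41 and 4.32 TPM at day 1 and between 279.9 and 301 TPM at day 0.

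The target genes of Hedgehog signalling were higher at day 1, with the pathway's own inhibitors among the most raised genes of the culture. Of 9 listed targets, 8 were called higher, each at least 2-fold, none was lower, and the median log2 fold change was 2.73. Ptch1, the receptor that holds Smoothened off, had 614, 609.9 and 635 TPM at day 1, against 21.1, 22.5 and 20.2 TPM at day 0. The day 1 libraries were all far above the day 0 libraries, by 26.9-fold (log2 4.75 ± 0.05, adjusted p = 1.62e-36), and no other gene had a smaller p. Gli1, the activator that is itself a target, had 126, 106 and 103 TPM at day 1, against 6.85, 6.23 and 6.39 TPM at day 0 (log2 4.16 ± 0.10, adjusted p = 3.37e-27). It shares exon sequence with Arhgap9 on the other strand, so some of its counts may belong there, as strand use in the counting is not given in the sources used here. Hhip, a membrane protein that captures the ligand, had 13.7, 12.7 and 16.4 TPM at day 1, against 0.32, 0.46 and 0.32 TPM at day 0 (log2 5.24 ± 0.11, adjusted p = 1.3e-28). All 3 genes were at higher levels in each day 1 library than in any day 0 library. Mycn, a growth-promoting transcription factor, rose by log2 2.15 ± 0.07, Prdm1 by 3.45 ± 0.24 and the forkhead gene Foxf1 by 2.73 ± 0.17. The listed target without a call was Ccnd1 (cyclin D1), with 95.1, 93.9 and 88.8 TPM at day 1 and 82.4, 87.5 and 83.5 TPM at day 0.

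For Ptch1 and Gli1 most of the gain was in place at day 0.5, 12 hours into the new medium. Ptch1 averaged 492 ± 4.18 TPM then and Gli1 85.3 ± 1.96 TPM (SD, n = 3), and from day 0.5 to day 1 they gained a further 0.33 and 0.37 on the log2 scale (adjusted p = 8.27e-08 and 0.000265). Hhip came later, with 5.51 ± 0.285 TPM at day 0.5 and a log2 gain of 1.49 from there to day 1 (adjusted p = 3.3e-17). Ccnd1 was highest at day 0.5, at 160.5 ± 1.06 TPM, so that its day 1 level lay below that by log2 0.81 (adjusted p = 3.02e-12).

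The components that receive and pass on the signal moved far less. Of 18 listed receptors and transducers 16 were tested, and 13 were called higher, 1 lower and 2 neither, with a median log2 fold change of 0.42. Of the 13 higher, 4 rose at least 2-fold, Scube2 and Gas1 among them. Scube2, a secreted protein that releases the ligand from cells, had 5.73, 5.98 and 4.72 TPM at day 1 and 0.12, 0.16 and 0.25 TPM at day 0 (log2 5.08 ± 0.18). Gas1, a co-receptor, rose by log2 1.86 ± 0.08. Shh itself reached 2.02, 1.52 and 1.63 TPM at day 1, against 0.21, 0.17 and 0.20 TPM at day 0 (log2 3.13 ± 0.35, adjusted p = 1.5e-09), a low level on both days. Gli3, mainly a repressor, fell by 0.31 ± 0.06 on the log2 scale (adjusted p = 3.79e-05). Limma on log2(TPM + 1) and log2(TPM + 0.1) gave it log2 fold changes of -0.24 and -0.25 and did not call it. Gli2 was not called, with 16.9, 16.9 and 14.5 TPM at day 1 and 13, 14.9 and 15.4 TPM at day 0. Ihh and Dhh were too low to be tested.

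Retinoid genes split: the Crabp binding proteins, the Cyp26 enzymes that degrade retinoic acid and the receptor Rarb were higher at day 1, while Rarg, Rxrg and the retinol uptake receptor Stra6 were lower. Of 16 genes of retinoid metabolism and binding 15 were tested, with 9 higher, 4 lower, 2 not called and a median log2 fold change of 1.46. Of 11 receptor genes and partners 7 were higher, 3 lower (Rarg, Rxrg and Nr6a1) and 1 not called, with a median of 1.05. Rarb, the receptor gene with the DR5 match printed above, had 32.7, 30.1 and 33.0 TPM at day 1, against 0.78, 0.52 and 0.50 TPM at day 0 (log2 5.69 ± 0.10, adjusted p = 2.79e-31). It shares exon sequence with Top2b on the other strand, so part of its count is uncertain. Rarg fell by 2.31 on the log2 scale and averaged 22.6 TPM at day 1 and 112 TPM at day 0. The retinoid X receptor gene Rxrg had 0.58, 0.76 and 0.75 TPM at day 1, against 7.16, 6.76 and 7.09 TPM at day 0 (log2 -3.39 ± 0.16, adjusted p = 4.02e-19). The COUP-TF receptors Nr2f1 and Nr2f2, orphan receptors of the same superfamily, rose by log2 6.46 ± 0.09 and 5.85 ± 0.17, and each shares exon sequence with a non-coding gene on the other strand.

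Crabp2, which carries retinoic acid to the nucleus, was the most abundant of the listed retinoid genes by TPM: 1525, 1561 and 1539.8 TPM at day 1, against 116, 121 and 114 TPM at day 0 (log2 3.72 ± 0.06, adjusted p = 6.47e-32). Its relative Crabp1 had 447, 379 and 345 TPM at day 1, against 48.0, 49.2 and 51.0 TPM at day 0 (log2 2.97 ± 0.07), and most of that gain, log2 2.00, came after day 0.5. Stra8, a germ cell gene named for its induction by retinoic acid, had 2.25, 2.99 and 2.84 TPM at day 1, against 0.09, 0.16 and 0.41 TPM at day 0 (log2 4.63 ± 0.34). Stra6 went the other way, at 16.9, 14.5 and 12.4 TPM at day 1, against 44.5, 53.7 and 47.3 TPM at day 0 (log2 -1.73 ± 0.09, adjusted p = 1.17e-17). The synthesis enzymes Rdh10 and Aldh1a2, named here after their values were seen, averaged 12.5 and 4.48 TPM at day 1, against 3.68 and 2.48 TPM at day 0, and both were called higher.

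Genes that lower retinoic acid were raised at day 1, and Cyp26a1 and Dhrs3 had been higher still at day 0.5. Cyp26a1, with the other DR5 match, had 2.48, 2.14 and 2.04 TPM at day 1, against 0.65, 0.48 and 0.49 TPM at day 0 (log2 2.01 ± 0.21, adjusted p = 3.38e-10), and at day 0.5 it averaged 9.18 ± 0.811 TPM. Dhrs3, which returns retinaldehyde to retinol, had 6.88, 7.13 and 6.75 TPM at day 1, against 1.88, 1.89 and 2.32 TPM at day 0 (log2 1.74 ± 0.15, adjusted p = 3.34e-12), and averaged 15.4 ± 1.52 TPM at day 0.5. Cyp26b1 had 1.69, 1.90 and 2.10 TPM at day 1, against 0.18, 0.17 and 0.25 TPM at day 0 (log2 3.26 ± 0.33, adjusted p = 1.92e-10), and 1.70 ± 0.848 TPM at day 0.5. From day 0.5 to day 1, Cyp26a1 and Dhrs3 fell by 2.06 and 1.14 on the log2 scale (adjusted p = 5.19e-14 and 1.16e-10).

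**Figure D3:**
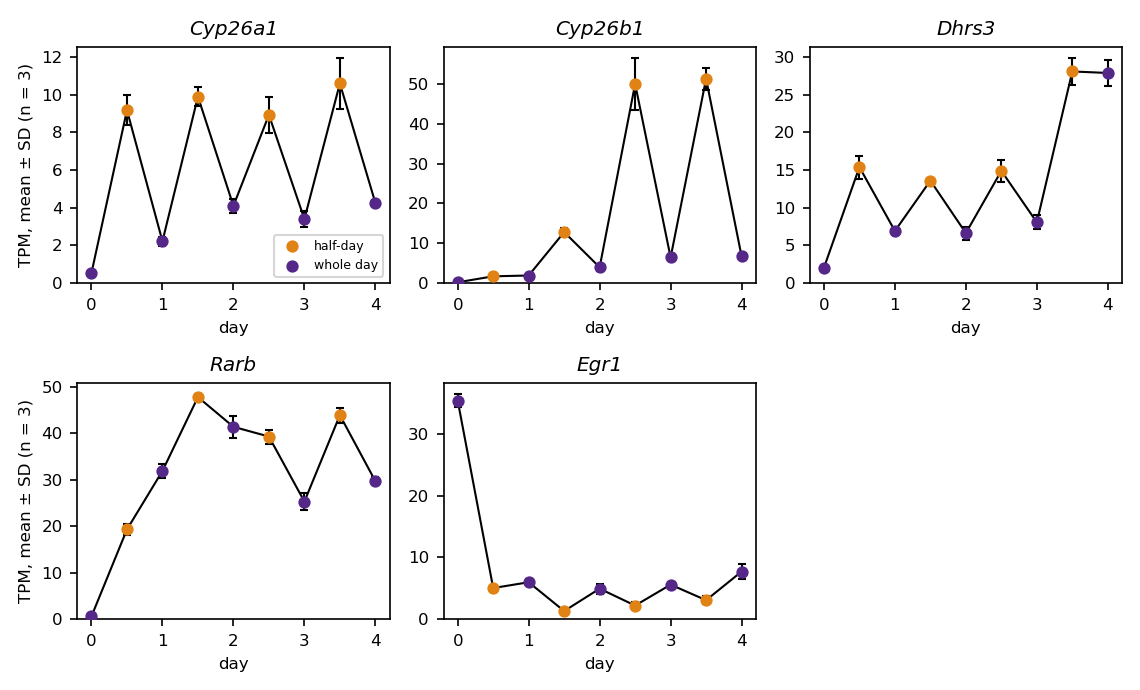
Mean TPM with SD (n = 3) of 5 genes on days 0 to 4, with days 0.5, 1.5, 2.5 and 3.5 in orange and whole days in purple; the y axes start at 0. Cyp26a1 lies at 8.93 to 10.6 TPM on the 4 days between whole days and at 4.26 TPM or less on the whole days, Cyp26b1 joins this pattern from day 1.5, and Egr1 lies lower on each of those days than on the whole days beside it.

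In the later course the same alternation went on, where above or below means that all 3 libraries of a day lay beyond all libraries of both neighbouring whole days. Cyp26a1 was above at 4 of 4 days (0.5, 1.5, 2.5 and 3.5), as were 141 genes (0.784% of those tested), and it ranked at the top of those reaching 1 TPM by its mean log2 excess, 1.82. Cyp26b1 and Dhrs3 were above at 3 of 4, with Cyp26b1 at 1.90 ± 0.205, 12.8 ± 0.946 and 3.96 ± 0.849 TPM on days 1, 1.5 and 2. Below both neighbours at 4 of 4 were 131 genes (0.728%), Egr1 among them with a mean log2 excess of -1.45. The labels say that the medium was changed daily but not how sampling was timed against it, and any part of that timing in these values was not tested. This pattern was looked for after the values were seen.

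Hox genes changed along the clusters rather than as a block. Of the 12 genes of paralogue groups 1 to 4, 8 were called higher and 2 lower (median log2 fold change 1.67). Of the 11 genes of groups 5 to 8, 7 were higher and 3 lower (median 0.86). Of the 16 genes of groups 9 to 13 only 7 passed the filter on low counts, and of those none was higher and 3 were lower, or 1 when replicate 2 or 3 of day 1 or replicate 1 of day 0 was left out. At the 3′ end of HoxB, where the earliest retinoic acid targets lie, the level was lower at day 1 than at day 0. Hoxb1 had 33.2, 33.6 and 29.9 TPM at day 1, against 75.1, 86.0 and 76.0 TPM at day 0 (log2 -1.30 ± 0.08, adjusted p = 3.57e-16), and at day 0.5 it was still at 88.1 ± 7.64 TPM. Hoxd1 was not called, at 1.66, 1.68 and 1.78 TPM at day 1 and 2.05, 2.03 and 2.36 TPM at day 0.

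Most genes of groups 2 to 6 rose. Hoxb3 rose by log2 2.09 ± 0.07 and Hoxa2 by 1.90 ± 0.09, while Hoxa3 was not called. Hoxb4 had 41.3, 35.7 and 41.5 TPM at day 1, against 11.4, 11.9 and 11.4 TPM at day 0 (log2 1.76 ± 0.09, adjusted p = 1.27e-18). Hoxb5 rose by log2 1.86 ± 0.13. On chromosome 2, Hoxd3 had 54.6, 41.6 and 44.1 TPM at day 1, against 0.20, 0.13 and 0.21 TPM at day 0 (log2 8.08 ± 0.21, adjusted p = 5.71e-26), and Hoxd4 55.4, 49.6 and 54.5 TPM at day 1, against 2.41, 2.73 and 2.48 TPM at day 0 (log2 4.20 ± 0.11). Hoxd3 and Hoxd4 share exon sequence, so the division of counts between them is uncertain. Hoxa7 rose by log2 0.86 ± 0.20 and Hoxd8 by 2.52 ± 0.24. In HoxB the posterior genes did not rise: Hoxb6 and Hoxb7 fell by 0.49 and 0.60 on the log2 scale, and Hoxb8 was not called, with 81.4, 85.8 and 78.0 TPM at day 1 and 61.0, 77.8 and 71.8 TPM at day 0. Hoxb9 had 77.6, 93.7 and 83.0 TPM at day 1, against 139, 143 and 131 TPM at day 0 (log2 -0.72 ± 0.17, adjusted p = 0.000386).

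**Figure D4:**
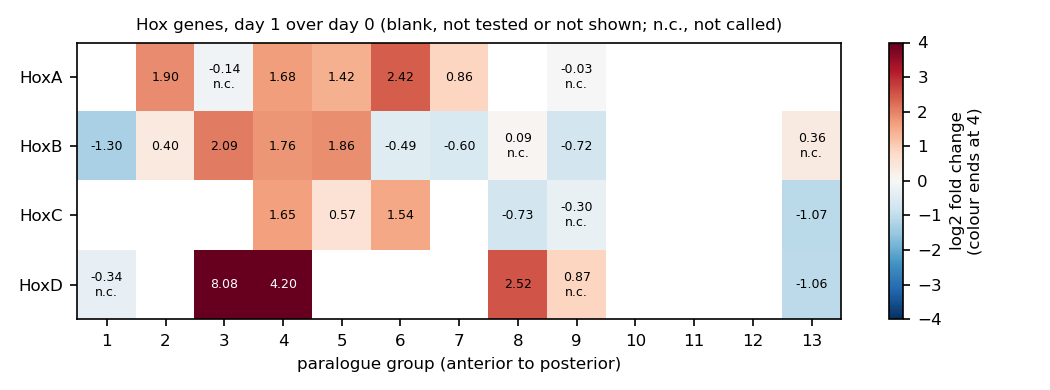
Fitted log2 fold change, day 1 over day 0, of each Hox gene by cluster (rows) and paralogue group (columns, anterior at the left); blank squares hold no gene that was tested and is reported and n.c. marks genes not called. Red fills most of groups 2 to 6, Hoxa7 and Hoxd8, with Hoxd3 the darkest at 8.08, and blue marks Hoxb1 at the anterior end and Hoxb6, Hoxb7, Hoxc8, Hoxb9, Hoxc13 and Hoxd13 towards the posterior end. The calls of Hoxc13 and Hoxd13 were lost when single libraries were left out, with adjusted p up to 0.167 and 0.0939 by edgeR's quasi-likelihood test.

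Of 9 genes for Hox cofactors 7 were called higher and 1 lower, with a median log2 fold change of 1.50. These proteins bind DNA together with Hox factors. Meis1 had 77.5, 75.9 and 81.8 TPM at day 1, against 0.81, 1.06 and 0.76 TPM at day 0 (log2 6.50 ± 0.07, adjusted p = 3.31e-36), and Meis2 had 94.2, 95.1 and 89.3 TPM at day 1, against 8.29, 6.45 and 6.00 TPM at day 0 (log2 3.89 ± 0.06). Pknox2 rose by log2 1.64 ± 0.04. Pbx3 was not called, at a mean of 28.3 TPM at day 1 and 28.7 TPM at day 0.

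Neural progenitor genes rose together within the day. Of 25 listed, 22 were called higher and 3 lower, with a median log2 fold change of 1.70. Sox1 had 79.4, 77.5 and 76.5 TPM at day 1, against 4.24, 4.38 and 3.87 TPM at day 0 (log2 4.21 ± 0.06, adjusted p = 7.99e-33), a level it already held at day 0.5 (76.6 ± 3.25 TPM). Pax6, a patterning factor of the neural tube, had 59.9, 52.3 and 56.4 TPM at day 1, against 0.98, 1.17 and 1.15 TPM at day 0 (log2 5.81 ± 0.10, adjusted p = 2.79e-31). Its day 0.5 mean was 107 ± 6.13 TPM, so that by day 1 it stood lower than at day 0.5 by log2 0.92 (adjusted p = 2.21e-14). Sox2, shared by pluripotent, neuromesodermal and neural cells, had 178, 181 and 187 TPM at day 1, against 58.9, 55.0 and 53.5 TPM at day 0 (log2 1.70 ± 0.05). Irx3 rose by log2 2.90 ± 0.08, Hes5 by 5.89 ± 0.13, Pou3f2 by 6.93 ± 0.13 and Rfx4 by 5.56 ± 0.08. The 3 members called lower were Hes3 at log2 -2.91 ± 0.26, Zic2 at -2.96 and Zic1 at -0.53, and Hes3 is also counted among the caudal genes below.

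Ventral progenitor genes made up the steepest rises of the comparison. All 12 listed were tested and called higher, each at least 2-fold, with a median log2 fold change of 5.37, and their summed level was 533 to 628 TPM at day 1 and 5.02 to 6.39 TPM at day 0. Olig2, the factor that defines motor neuron progenitors, had 104, 106 and 104 TPM at day 1, against 0.06, 0.17 and 0.09 TPM at day 0 (log2 9.91 ± 0.24, adjusted p = 2.67e-27). Nkx6-1, expressed across the ventral domains, had 222, 215 and 206 TPM at day 1, against 0.61, 0.60 and 0.41 TPM at day 0 (log2 8.61 ± 0.10, adjusted p = 3.31e-36). Both were separated from day 0 by more than any spread between libraries. Nkx2-9 had 166, 147 and 119.6 TPM at day 1, against 0.65, 1.03 and 0.94 TPM at day 0 (log2 7.37 ± 0.17). The p3 domain gene Nkx2-2 had 11.3, 10.0 and 9.59 TPM at day 1, against 0.05, 0.03 and 0.08 TPM at day 0 (log2 7.33 ± 0.23, adjusted p = 4.3e-24). Foxa2, the floor plate and endoderm factor, had 70.9, 58.2 and 51.9 TPM at day 1, against 0.60, 0.72 and 0.84 TPM at day 0 (log2 6.33 ± 0.17, adjusted p = 6.98e-26). At day 0.5, Foxa2 averaged 31.0 ± 1.16 TPM and Nkx6-1 86.6 ± 4.76 TPM, while Nkx2-2 was at 0.50 ± 0.0693 TPM and gained log2 4.40 between day 0.5 and day 1 (adjusted p = 1.05e-21). With 1 of the 6 libraries left out, 10 or 11 of the 12 were called higher.

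Genes of intermediate and dorsal progenitors gave no common direction: 4 of 12 tested were higher and 5 lower, and the summed level was 15.9 to 17.6 TPM at day 1 and 31.1 to 34.2 TPM at day 0. Pax3 had 0.49, 0.61 and 0.59 TPM at day 1, against 0.16, 0.10 and 0.07 TPM at day 0 (log2 2.36 ± 0.47, adjusted p = 5.86e-05). Dbx1 had 98 counts at day 1 and 1 at day 0, a ratio of 95.7 per total count with a 95% counting interval of 16.8 to 3820. Gsx1 was at 0 in all day 1 libraries and held 132 counts at day 0, so it was at least 15-fold lower, with the floor set at 3 counts in each library. The roof plate and dorsal gene Msx1 fell by 2.65 ± 0.23 on the log2 scale. Hindbrain segment genes split evenly, 6 of 12 tested higher and 6 lower, with 5 in each direction at least 2-fold and a median log2 fold change of 0.09. Both genes named next were on the lower side. Gbx2, an anterior hindbrain and caudal epiblast gene, had 26.9, 29.2 and 22.8 TPM at day 1, against 292, 306 and 313 TPM at day 0 (log2 -3.49 ± 0.09), and Egr2, the marker of rhombomeres 3 and 5, fell by 4.49 ± 0.39 on the log2 scale.

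Genes of the caudal epiblast fell steeply over the 24 hours. Of 22 listed genes 19 were called lower, 16 of them at least 2-fold, and 1 was called higher, with a median log2 fold change of -4.15. Their summed level was 217 to 227 TPM at day 1 and 2220.3 to 2335 TPM at day 0, and the largest share on both days was Grsf1, an RNA-binding protein gene, with a mean of 124 TPM at day 1 and 1014 TPM at day 0 (log2 -3.04 ± 0.04). Nkx1-2 had 3.41, 4.32 and 3.91 TPM at day 1, against 279.9, 301 and 293 TPM at day 0 (log2 -6.23 ± 0.10, adjusted p = 4.9e-32). T had 2.34, 1.65 and 2.11 TPM at day 1, against 34.7, 40.3 and 36.6 TPM at day 0 (log2 -4.21 ± 0.23, adjusted p = 3.24e-17). Among the Cdx genes, which set posterior identity, Cdx2 had 6.58, 7.88 and 6.93 TPM at day 1, against 224, 249 and 247 TPM at day 0 (log2 -5.08 ± 0.12). Cdx1 fell by 6.53 ± 0.17 and Cdx4 by 7.56 ± 0.30 on the log2 scale. Evx1, with 1 count at day 1 and 1783 at day 0, had a ratio of 1830 per total count (95% counting interval 327 to 72200), and it shares exon sequence with Evx1os, so their counts cannot be separated. The signals themselves fell as well: Wnt3a had 0.02, 0.04 and 0.02 TPM at day 1, against 3.19, 4.17 and 4.23 TPM at day 0 (log2 -7.09 ± 0.36), Wnt8a fell by 6.42 ± 0.10, and Fgf8 had 0.61, 0.26 and 0.81 TPM at day 1, against 8.07, 9.55 and 9.19 TPM at day 0 (log2 -4.09 ± 0.36).

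Members of the caudal list left at different times. Wnt8a lost log2 1.22 by day 0.5 and 5.20 between day 0.5 and day 1 (adjusted p = 4.46e-16 and 4.06e-28), and Cdx1 lost 1.34 and 5.19 (adjusted p = 9.65e-12 and 2.09e-21). Wnt6, outside the list and among the 10 largest falls as ranked below, lost 4.63 and then 2.77 (adjusted p = 1.4e-24 and 2.13e-12). Hes3 was higher at day 0.5 than at day 0, at 9.80 ± 0.611 TPM, and fell only afterwards. Greb1 was not called, at 26.4, 22.8 and 25.4 TPM at day 1 and 22.4, 26.1 and 26.3 TPM at day 0, and the listed gene called higher was Cyp26a1. Paraxial mesoderm genes, the other fate of these progenitors, gave 7 higher and 4 lower of 13 tested. Tbx6 had 0.68, 0.78 and 0.80 TPM at day 1, against 1.32, 1.61 and 1.58 TPM at day 0 (log2 -1.00 ± 0.33, adjusted p = 0.00902). Meox1 had 10.3, 10.0 and 8.42 TPM at day 1, against 0.36, 0.35 and 0.23 TPM at day 0 (log2 4.91 ± 0.27), and Foxc2 rose by log2 5.95 ± 0.39. Msgn1, Mesp1 and Ripply2 were too low to be tested.

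Pluripotency and epiblast genes mostly fell. Of 28 listed 27 were tested, with 19 lower, 5 higher (3 when the 6 libraries were fitted alone or under limma on log2(TPM + 1)) and 3 not called, and a median log2 fold change of -1.81. Pou5f1 had 9.34, 10.9 and 8.09 TPM at day 1, against 267, 272 and 287 TPM at day 0 (log2 -4.87 ± 0.14, adjusted p = 7.37e-25). Nanog had 1.59, 1.65 and 1.82 TPM at day 1, against 10.1, 10.3 and 10.6 TPM at day 0 (log2 -2.66 ± 0.16, adjusted p = 5.61e-16). Utf1 fell by 4.10 ± 0.22 on the log2 scale. The 5 called higher were Sox2, Trh, with a mean of 31.6 TPM at day 1 and 7.67 TPM at day 0, and Tdgf1, Lefty1 and Lefty2, with means of 0.327, 0.483 and 0.117 TPM at day 1 and 0.137, 0.060 and 0 TPM at day 0. The call of Tdgf1 was lost without any of 5 libraries and by DESeq2 (adjusted p = 0.0741). Adhesion genes switched: 11 of 20 were lower and 8 higher. Cdh1 (E-cadherin) had 12.7, 12.4 and 10.5 TPM at day 1, against 202, 202 and 206 TPM at day 0 (log2 -4.09 ± 0.09, adjusted p = 1.07e-27), and Epcam had 6.79, 6.17 and 6.78 TPM at day 1, against 106, 106 and 116 TPM at day 0 (log2 -4.06 ± 0.09). Cldn7, of epithelial tight junctions, fell by 4.42 ± 0.22 on the log2 scale. Cdh6, a cadherin of the neural tube, rose by log2 3.34 ± 0.13, and Cdh2 (N-cadherin), which went against the majority of its list, averaged 131 TPM at day 1 and 59.6 TPM at day 0. The methyltransferase gene Dnmt3b fell by 2.19 ± 0.05 and its partner Dnmt3l by 2.33 ± 0.28 on the log2 scale, against 6 of 12 tested genes of DNA methylation called higher and 4 lower.

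Readouts of Wnt and FGF signalling were lower at day 1. Of 20 Wnt targets and feedback genes 12 were lower and 5 higher (median log2 fold change -1.16). Axin2, a general Wnt target, had 30.7, 28.8 and 26.9 TPM at day 1, against 115, 131 and 123 TPM at day 0 (log2 -2.07 ± 0.04, adjusted p = 2.81e-29), and Sp5 fell by 5.27 ± 0.13. Notum, a secreted inhibitor, had 1.58, 1.57 and 0.98 TPM at day 1, against 39.8, 49.4 and 43.0 TPM at day 0. Dkk4 was at 0 in all day 1 libraries and held 302 counts at day 0, so it was at least 34.4-fold lower, and it was at 0 at day 0.5 too. The 5 members called higher were the secreted inhibitors Sfrp1, Sfrp2, Sfrp5 and Wif1 and the receptor Lgr5, with log2 fold changes of 2.37, 1.27, 2.30, 2.22 and 1.41. Of 22 genes of FGF-ERK feedback 17 were lower and 4 higher (median -1.03). Spry4 had 1.36, 1.32 and 1.37 TPM at day 1, against 15.5, 14.2 and 14.5 TPM at day 0 (log2 -3.45 ± 0.11, adjusted p = 1.79e-23), Etv4 fell by 3.38 ± 0.10, and Dusp6 had 32.8, 36.9 and 30.7 TPM at day 1, against 91.4, 89.5 and 91.8 TPM at day 0. The 4 higher were the phosphatase gene Dusp5 (log2 2.28) and the receptors Fgfr2, Fgfr3 and Fgfr4, with log2 fold changes of 3.04, 4.30 and 4.03. CHIR99021 and bFGF were listed only before day 0, and their part in these values cannot be told apart from that of the agents added.

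BMP and Nodal readouts, whose receptor inhibitors were likewise listed only before day 0, went in mixed directions. Of 15 BMP targets tested 8 were higher and 5 lower. Id1 had 73.3, 75.8 and 77.6 TPM at day 1, against 30.6, 28.8 and 27.7 TPM at day 0 (log2 1.37 ± 0.10, adjusted p = 1.16e-13), and was near this level at day 0.5 (67.8 ± 2.35 TPM). Id3 had 108, 106 and 96.2 TPM at day 1, against 33.6, 37.5 and 37.2 TPM at day 0 (log2 1.52 ± 0.08), with most of the gain after day 0.5. Atoh8 rose by log2 3.08 ± 0.14, while Fst, which binds activins and BMPs, had 5.27, 5.99 and 4.48 TPM at day 1, against 134, 136 and 137 TPM at day 0 (log2 -4.71 ± 0.19). Of 15 Nodal and activin targets tested 8 were higher and 4 lower, with 4 and 5 higher when the 6 libraries were fitted alone and under limma on log2(TPM + 1). Lefty2 held 16 counts at day 1 and 0 at day 0, so it was at least 1.74-fold higher, and Gdf3 fell by 3.48 ± 0.24 on the log2 scale.

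Notch pathway genes rose as a group, with 18 of 21 higher, 3 lower and a median log2 fold change of 1.36. Dll1, a ligand of nascent neurons, had 54.7, 52.4 and 51.0 TPM at day 1, against 18.2, 19.8 and 20.9 TPM at day 0 (log2 1.46 ± 0.05, adjusted p = 5.08e-23). The effector Hes5 had 227, 234 and 219 TPM at day 1, against 3.12, 4.42 and 4.46 TPM at day 0 (adjusted p = 5.25e-28). Hey1 rose by log2 2.65 ± 0.09 and Hey2 by 3.42 ± 0.17. Dll4, a ligand shared with endothelium, had 5.60, 4.54 and 4.62 TPM at day 1, against 0.26, 0.30 and 0.24 TPM at day 0 (log2 4.19 ± 0.19). The members called lower were Dll3, Jag2 and Hes6, with log2 fold changes of -1.49, -0.40 and -0.26.

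Proneural genes rose while most genes of differentiated neurons fell. Of 23 proneural and neurogenic genes 17 were higher and 1 lower (median 1.68). Neurog2 had 32.2, 33.2 and 31.6 TPM at day 1, against 0.34, 0.37 and 0.54 TPM at day 0 (log2 6.27 ± 0.19, adjusted p = 2.74e-24). Neurog1 had 3.09, 3.45 and 2.90 TPM at day 1 and no count at day 0, and was at least 30.7-fold higher. Neurod4 and Nhlh1, which follow Neurog2 in newborn neurons, rose by log2 5.78 ± 0.24 and 5.76 ± 0.28. Of 20 pan-neuronal genes 12 were lower and 6 higher, and their summed level was 319 to 332 TPM at day 1 and 514 to 521 TPM at day 0. Tubb3, the neuronal tubulin, had 26.3, 25.8 and 30.3 TPM at day 1, against 55.6, 54.1 and 52.9 TPM at day 0 (log2 -0.98 ± 0.07, adjusted p = 1.92e-13). Gng3, a G protein subunit of neurons that shares exon sequence with Bscl2 on the other strand, had 2.49, 1.78 and 1.72 TPM at day 1, against 45.8, 44.3 and 46.1 TPM at day 0 (log2 -4.52 ± 0.11). The neurofilament gene Nefm, which shares exon sequence with Nefl on the other strand, fell by 3.05 ± 0.22. The synaptic gene Syt1 fell by 2.54 ± 0.19. Dcx, a microtubule protein of migrating neurons, was called higher at 0.52, 0.70 and 1.30 TPM at day 1, against 0.12, 0.19 and 0.05 TPM at day 0 (log2 2.88 ± 0.33). Of 12 motor neuron genes 5 were higher and 4 lower: Isl1 rose by log2 3.31 ± 0.37 to 1.75 TPM and the receptor gene Ret by 5.79 ± 0.12, Prph fell by 2.85 ± 0.10, and Mnx1 was not called, at 5.49, 4.77 and 4.82 TPM at day 1 and 5.30, 5.35 and 5.40 TPM at day 0.

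**Figure D5:**
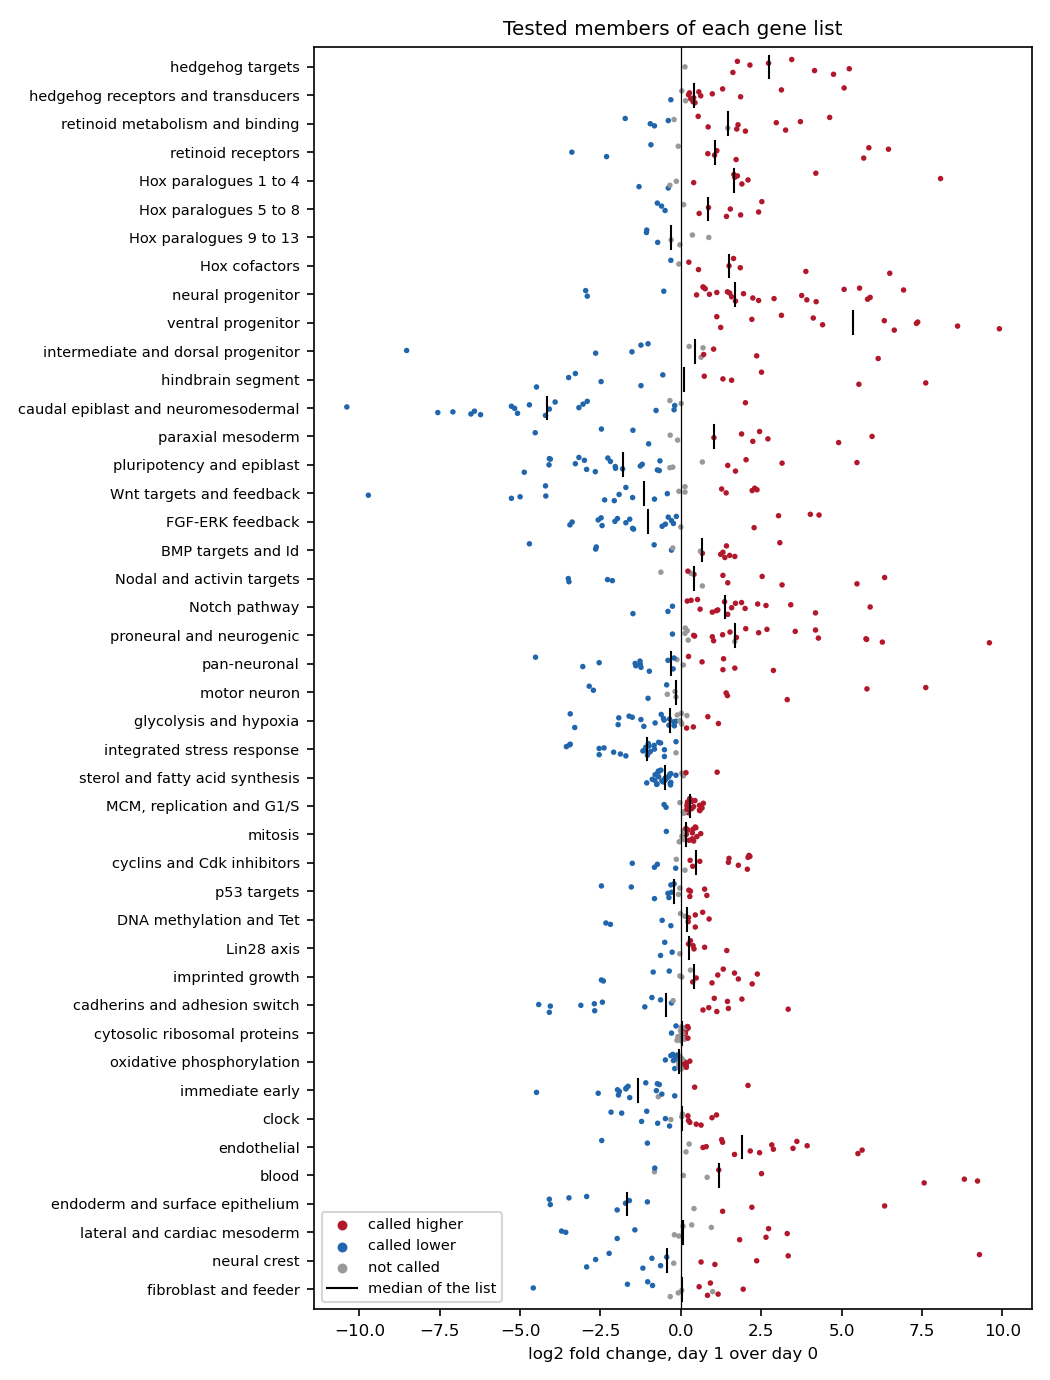
Each point is a tested member of a gene list (rows), at its fitted log2 fold change, day 1 over day 0; colour gives the call and the black bar the list's median. The ventral progenitor list has the median farthest to the right, 5.37, and the caudal epiblast list the one farthest to the left, -4.15, while ribosomal protein and oxidative phosphorylation genes lie within a narrow band at 0.

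Genes of the integrated stress response were lower at day 1 almost without exception. Of 26 listed 25 were tested, and 24 were called lower, 15 of them at least 2-fold, none higher, with a median log2 fold change of -1.04. Asns, the asparagine synthetase gene driven by Atf4, had 142, 154 and 146 TPM at day 1, against 521, 502 and 529.5 TPM at day 0 (log2 -1.88 ± 0.08, adjusted p = 2.92e-20), and was at 147 ± 1.16 TPM by day 0.5. The amino acid transporter gene Slc7a3 fell by 3.56 ± 0.17 and Trib3 by 2.54 ± 0.18. Ddit4, an mTOR inhibitor, had 53.7, 53.4 and 46.9 TPM at day 1, against 542, 567 and 552 TPM at day 0 (log2 -3.44 ± 0.08). Sesn2 was not called, at 72.0, 70.3 and 59.1 TPM at day 1 and 72.0, 73.2 and 76.9 TPM at day 0. Immediate early genes fell too, 15 of 18 lower and 2 higher, with Egr1 at 6.45, 5.92 and 5.55 TPM at day 1, against 34.7, 36.6 and 34.8 TPM at day 0 (log2 -2.57 ± 0.13). The 2 higher were Btg2 and Myc, and Myc had 26.4, 28.9 and 28.0 TPM at day 1, against 6.28, 7.00 and 7.09 TPM at day 0.

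Glycolysis and hypoxia genes were lower in 17 of 27 tested and higher in 4 (median -0.35). The glucose transporter gene Slc2a3 had 61.5, 60.6 and 61.5 TPM at day 1, against 587, 599 and 585 TPM at day 0 (log2 -3.30 ± 0.09, adjusted p = 4.37e-26), and most of its loss, log2 2.45, came after day 0.5. Its relative Slc2a1 was at 2142 ± 33.8 TPM at day 0.5 and at 876, 894 and 815 TPM at day 1, against 743, 752 and 787 TPM at day 0. Pdk1, which keeps pyruvate from the mitochondria, fell by 1.93 ± 0.13 on the log2 scale. Of 30 genes of sterol and fatty acid synthesis 26 were lower and 2 higher, with a median log2 fold change of -0.49. Of the 26, 1 fell at least 2-fold, Pmvk (log2 -1.06 ± 0.05), and of the 2 higher 1 rose at least 2-fold, while Acly rose by log2 0.16 ± 0.04.

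Cell cycle genes moved little. Of 23 genes of replication and the G1/S transition 17 were higher and 2 lower, none by 2-fold, with a median log2 fold change of 0.28, and of 21 mitosis genes 12 were higher and 1 lower, with a median of 0.17. Mcm6 had 295, 299 and 299.7 TPM at day 1, against 191, 197 and 197 TPM at day 0 (log2 0.59 ± 0.05). Larger steps were found among regulators: Ccnd2 (cyclin D2) had 752, 757 and 769 TPM at day 1, against 196, 171 and 180.2 TPM at day 0 (log2 2.07 ± 0.07, adjusted p = 1.58e-23), and the 3 Myc genes each rose by about as much, Mycl by log2 2.12 ± 0.05. Lin28a had 358, 349 and 335 TPM at day 1, against 531, 531 and 535 TPM at day 0 (log2 -0.63 ± 0.05, adjusted p = 9.16e-14), while Hmga2, a target of let-7 microRNAs, rose by log2 1.43 ± 0.06. Of 30 ribosomal protein genes 21 were not called, and of 25 nuclear genes of oxidative phosphorylation 7 were higher and 8 lower, none by 2-fold. Of 15 p53 targets 5 were higher and 8 lower, of 10 genes of the Lin28 axis 6 and 3, of 17 clock genes 7 and 7, and of 9 mitochondrially encoded genes 1 and 2 (0 to 2 higher and 1 or 2 lower with 1 library left out). Of 16 imprinted growth genes 9 were higher and 4 lower, with the non-coding Meg3 and Rian lower by 2.41 ± 0.17 and 2.47 ± 0.08 and Plagl1 and H19 higher by 2.38 ± 0.08 and 2.22 ± 0.15 on the log2 scale.

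The 10 largest rises and falls were taken from called genes of at least 10 CPM. Genes without a symbol or with a Gm, Rik or clone name were left out. The ranking also held genes outside the groups described so far. The endothelin receptor gene Ednrb, a gene of neural crest and glial progenitors, had 71.9, 70.2 and 68.8 TPM at day 1, against 0.15, 0.08 and 0.10 TPM at day 0 (log2 9.29 ± 0.16, adjusted p = 2.79e-31). Fam181a had 19.6, 19.1 and 15.5 TPM at day 1 and 1 count in all at day 0, a ratio of 1330 per total count (95% counting interval 237 to 52400). Vit, which encodes a secreted matrix protein, had 9.91, 7.27 and 7.15 TPM at day 1 and no count at day 0, at least 132-fold higher. The gene ccdc198 had 30.6, 23.3 and 26.6 TPM at day 1 and no count at day 0, at least 179-fold higher, and 18.0 ± 3.61 TPM at day 0.5. Among the falls, the protease-activated receptor gene F2rl1 had 1.64, 1.40 and 1.33 TPM at day 1, against 127, 126 and 125 TPM at day 0 (log2 -6.45 ± 0.11, adjusted p = 7.8e-31). Wnt6 had 0.48, 0.44 and 0.27 TPM at day 1, against 53.6, 65.7 and 62.7 TPM at day 0, and the non-coding Platr15 fell by 7.35 ± 0.42 on the log2 scale. Groups without overlap were a condition of this ranking, and 10852 of the 17990 genes tested (60.3%) met it.

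Markers of other cell types were looked at for what else the cultures held. Of 18 endothelial genes 14 were higher and 2 lower (median 1.92), and their summed level was 130.0 to 161 TPM at day 1 and 84.6 to 85.6 TPM at day 0. Cdh5 (VE-cadherin) had 9.0, 8.41 and 7.67 TPM at day 1, against 0.24, 0.19 and 0.10 TPM at day 0 (log2 5.51 ± 0.39, adjusted p = 3.52e-14), and Tie1 had 4.36, 3.85 and 3.48 TPM at day 1, against 0.06, 0.09 and 0.08 TPM at day 0. Lmo2 and Etv2, which act at the start of the endothelial and blood lineages, were the 2 lower, with log2 fold changes of -1.04 and -2.46. Of 14 blood genes 9 were tested, with 5 higher and 1 lower, a lower call that was lost without replicate 2 or 3 of either day. The embryonic globin genes Hbb-bh1 and Hba-x were at 0 in all day 0 libraries and at 9.15, 6.55 and 6.55 TPM and 5.48, 5.82 and 3.21 TPM at day 1, at least 23.8-fold and 17.8-fold higher, while the leukocyte gene Ptprc was at 0.01 TPM or less at day 1. Gata1, Spi1 and Csf1r were too low to be tested. The share of such cells in the values of Dll4 and other genes was not tested.

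Of 12 tested genes of endoderm and surface epithelium 8 were lower and 3 higher. Their summed level was 76.3 to 94.3 TPM at day 1 and 474 to 487 TPM at day 0, at day 0 mostly from Cdh1 and Epcam. These 2 are also genes of the adhesion switch above, so the lower sum is not a measure of endoderm. Foxa2, an endoderm as well as a floor plate factor, went the other way, as given with the ventral genes. The defining endoderm genes Afp, Ttr and Apoa1 were too low to be tested. Of 13 lateral and cardiac mesoderm genes 4 were higher and 4 lower, and the muscle actin gene Actc1 had 2.02, 1.92 and 1.05 TPM at day 1, against 18.7, 19 and 21.3 TPM at day 0. Of 13 neural crest genes 5 were higher and 7 lower, with summed levels of 107 to 113 TPM at day 1 and 33.2 to 36.8 TPM at day 0, most of it at day 1 from Ednrb. Sox10, its defining factor, averaged 0.243 TPM at day 1 and 0.563 TPM at day 0, and was called lower (log2 -1.18 ± 0.40) but not without replicate 1 or 3 of day 1 or replicate 2 of day 0 (adjusted p = 0.0568 to 0.0761 by edgeR's quasi-likelihood test), and Foxd3 was too low to be tested. Of 13 fibroblast and feeder genes 5 were higher and 4 lower, with summed levels of 56.5 to 68.9 TPM at day 1 and 115 to 125 TPM at day 0. Col3a1 averaged 5.36 TPM at day 1 and 1.69 TPM at day 0, and Thy1 had 1.06, 1.03 and 1.43 TPM at day 1, against 22.3, 21.9 and 19.9 TPM at day 0. The part of these cells in the values of other genes was not tested.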

How the data were processed

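PolyA RNA of 36 libraries (12 time points with 3 biological replicates each) was sequenced, and the 6 of day 1 and day 0 are compared here. Expected counts and TPM per gene were deposited by the authors. They name RSEM, bcl2fastq 2.20.0 and the build GRCm38, per the submitters' processing notes. Which aligner, annotation release and strand setting were used is not given in the sources used here. Of the expected count values as deposited, 6.87% were not whole, and all were rounded before testing. TPM are as deposited and give the levels of each library.

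Samples were grouped by labelled day. Of 51912 genes, 17990 passed edgeR's filterByExpr by time point. All 36 libraries entered 1 fit (edgeR 4.0.16 in R 4.3.3, TMM scaling, quasi-likelihood test, 24 residual degrees of freedom), with day 1 minus day 0, day 0.5 minus day 0 and day 1 minus day 0.5 as contrasts and Benjamini-Hochberg adjustment over all genes. The first 2 contrasts share the day 0 libraries. Standard errors are the log2 fold change over the root of F. In simulated data made from these libraries, 67, 67 and 66 of 17990 genes were changed 1.5-fold, 2-fold and 4-fold. The fit for day 1 against day 0 recovered 65.7%, 83.6% and 87.9% of them, and 4.24% of its calls were false. The simulated counts used the fitted spread and means over all time points. Far fewer genes were changed there than were called here, so these rates need not hold for the comparison itself. Folds against a group at 0 are bounds with 3 counts in each library as the floor, and ratios with 1 to 3 counts carry exact 95% counting intervals; both cover counting error only. The excess on days 0.5, 1.5, 2.5 and 3.5 is log2(TPM + 0.1) against the mean of the neighbouring whole days.

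Named genes are a fixed panel, the 10 largest rises and falls, and up to 4 called members of each of the lists with the largest change. Members that went against their list or were not called are named too. The rises and falls were ranked among called genes of at least 10 CPM without overlap. Genes without a symbol or with a Gm, Rik or clone name were left out of that ranking. Some genes are counted in the lists but not reported here by name. The members and lists were chosen with earlier results of these data known. Alternatives were RLE scaling, DESeq2 1.42.0, no filter, the 6 libraries alone, a replicate block, each library left out and limma 3.58.1 on log2 TPM. Day 1 and day 0 libraries of the same replicate number had deviations correlated at -0.08 to 0.01, and those of different numbers at -0.05 to 0.12. With 3 libraries per day, these values cannot tell whether libraries of equal number shared a culture or run. Replicate pairs differed by more than sampling noise (chi-square per degree of freedom 4.12 to 48.5).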

Additional observations from a re-analysis of the deposited data

How the results depend on the processing

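Counts over all genes stayed within 1.5 times of those reported under every alternative run, except the count changed at least 2-fold under limma on log2(TPM + 1), which compresses low genes. There it was 1697 (721 higher, 976 lower) for day 1 against day 0, where 3700 are reported, 957 (408 higher, 549 lower) for day 0.5 against day 0, and 449 (221 higher, 228 lower) for day 1 against day 0.5. Leaving out each library in turn gave 10581 to 10812 genes changed between day 1 and day 0 (5211 to 5293 higher, 5370 to 5519 lower), and 3630 to 3700 changed at least 2-fold (1482 to 1555 higher, 2125 to 2207 lower). For day 0.5 against day 0 it gave 8871 to 9893 genes (4449 to 4954 higher, 4422 to 4939 lower), with 2386 to 2556 at least 2-fold (938 to 1011 higher, 1448 to 1545 lower). For day 1 against day 0.5 it gave 7776 to 8555 (3822 to 4220 higher, 3954 to 4335 lower), with 1564 to 1635 at least 2-fold (610 to 692 higher, 907 to 954 lower). With the replicate number as a block, 11204 genes were called between day 1 and day 0, though the labels do not say that libraries of equal number belong together. DESeq2 called 10962. Of the calls reported, 87 were not made with the block, 357 by DESeq2, 773 to 954 without 1 library, 123 with median-of-ratios scaling, 697 with no filter, 1519 by limma on log2(TPM + 1) and 1277 on log2(TPM + 0.1). With the 6 libraries alone 573 were not made and a further 510 of these genes got no adjusted p. Limma called 1 and 2 genes in the other direction on these scales, and the other fits none. Of 90 counts over gene lists, 81 stayed within 1.5 times. The other 9 moved under some settings: Hox 9 to 13 lower (3 reported, 1 without 1 of 3 libraries), pluripotency higher (5, then 3), Nodal targets higher (8, then 4 and 5), Hedgehog transducers lower (1, then 0 by limma), blood lower (1, then 0 with the block, by limma or without 1 of 4 libraries), ribosomal higher (7, then 11 with no filter or the 6 libraries alone) and lower (2, then 1 by limma), and mitochondrially encoded higher (1, then 0 to 3) and lower (2, then 1). The median log2 fold change of all genes stayed within 0.01 of 0 under each setting. Of the values for 183 named genes under all alternatives, 2340 kept direction and call, 29 lost the call, 7 gained it and none changed sign among called values. Those that lost it were Gli3, Hoxc8, Hoxc13, Hoxd13, Zic1, Tdgf1, Lefty2, Slc2a1 and Sox10, and those that gained it were Ccnd1, Gli2, Hoxa3, Hoxb8 and Sesn2. With genes at 0 in 1 group set to their bound, 0 of the medians of the 8 lists that hold such genes moved. Genes with few counts limit what depth can show: Lefty2 and Meox2 rest on few reads.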
